A study of Mus musculus with 6 samples.

Results

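The Rab genes of this mouse series were taken as every gene of the array table whose only symbol begins with Rab and a digit, each read by the probe set that averaged highest across all 6 arrays. The rule found 72 of 18194 genes. Of these, 59 encode Rab GTPases and 13 do not: 10 encode proteins named after the Rab they bind or act on (Rab3gap1, Rab3gap2, Rab3il1, Rab3ip, Rab5if and Rab11fip1 to Rab11fip5), and Rab10os, Rab26os and Rab11fip4os1 are opposite-strand transcripts. "Member" means any of the 72.

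RNA of MIN6 cells, a mouse insulinoma line that secretes insulin, and of pancreatic islets was measured on Affymetrix arrays. MIN6 cells were infected for 48 h at a multiplicity of 250 with an adenovirus that expressed GFP as the control (AdGFP, 1 array), miR-7a2 (AdmiR7a, on 2 arrays) or miR-7b (AdmiR7b, on 1). The medium was DMEM with Glutamax and 4.5 g/l glucose, to which 5.5 µM 2-mercaptoethanol and FBS at 2% were added. All 4 MIN6 arrays thus come from virus-infected cells of a single line, and no uninfected array was analysed here. The islets were from C57BL/6 mice with a beta-cell-specific Lox/Cre deletion of miR-7a2 (KO, 1 array) and from WT mice (1 array). The driver of Cre, the alleles carried by the WT mice, their age and any pooling of animals are not given in the sources used here.

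Rab GTPases are small proteins that switch between a GTP-bound form on membranes and a GDP-bound form that the GDP dissociation inhibitors extract. Exchange factors load them with GTP, GTPase-activating proteins switch them off, and effectors that bind the GTP form tether, move or fuse vesicles. In beta cells Rab3 and Rab27 proteins are known for the docking and release of insulin granules, while other family members serve the endoplasmic reticulum, Golgi, endosomes and lysosomes.

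The agent compared in both systems is miR-7. The mature forms are shown because they share the seed (bases 2 to 8, in capitals), which is why the AdmiR7a and AdmiR7b arrays were also pooled; the only difference over their shared length is A10U, counted from the 5′ end of miR-7a. The sequences are RefSeq's (GRCm38.p6). That of miR-7a is given at the Mir7-2 gene, chr7:78888295-78888317 (+ strand), and that of miR-7b at Mir7b, chr17:56243017-56243040 (+ strand), and no other gene of the RefSeq table covers either.
miR-7a-5p: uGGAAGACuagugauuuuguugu
miR-7b-5p: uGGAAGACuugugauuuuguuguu

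Values are log2 GCRMA intensities as deposited, where 2.17 is the lowest value and was held by 28.3% to 29.7% of probe sets on each array. MIN6 arrays carried the beta-cell genes Ins2 (15.7 to 15.9) and Pdx1 (13.2 on AdGFP, 12.1 to 12.3 on the miR-7 arrays), but Slc2a2, the glucose transporter of mature beta cells, stood at 3.84 on AdGFP and 2.52 on the miR-7 arrays. All 8 immune and all 6 stellate markers had a mean below 4 in MIN6. A mean of 4 or more was held there by 2 of 3 alpha, 2 of 4 delta, PP and epsilon and 2 of 6 endothelial markers. These included Gcg (12.7 to 13.4), Sst (9.28 to 9.64) and Esam (7.38 to 8.23). In islets, 5 of 8 immune, 6 of 6 endothelial and 2 of 6 stellate markers had a mean of 4 or more, as did 1 of 7 acinar and 0 of 4 ductal markers. For actin, the 3′ control probe set exceeded the 5′ one by 1.43 to 1.48 in MIN6 and by 2.65 to 2.77 in islets.

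Of the 72 members, 58 had a mean of at least 4 in MIN6, 59 in islets and 60 over all 6 arrays, and these were compared. The 11 members under 4 in both systems were the GTPase genes Rab7b, Rab15, Rab27b, Rab29, Rab33a, Rab38, Rab42 and Rab44, with Rab3il1, Rab11fip1 and Rab11fip4os1. Rab26 and Rab36 passed, but 4 and 5 of their 6 values lay within 0.02 of their lowest, 4.73 and 5.66. The probe sets used for them thus carry little information on differences. A further Rab36 probe set read 4.71 to 5.04 in MIN6 and 6.84 and 7.19 in islets (MIN6 minus islets -2.12). Probe sets differ in affinity, so their values were ranked only to choose which members to name, and no difference in level between genes is read from them.

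Raising miR-7 in MIN6 cells asks which transcripts respond to the microRNA. Rab17 stood out by size, 5.29-fold above AdGFP, followed by Rab3b, 2.14-fold above it, whereas Rab18 was 2.46-fold, Rab5if 2.19-fold and Rab28 1.82-fold below it. In the pooled limma fit of the 3 miR-7 arrays against AdGFP (Benjamini-Hochberg adjusted p under 0.05 over 10367 genes), 7 of 58 members rose (14.0% of all genes rose) and 8 fell (12.1% of all genes fell). Together 25.9% of the members were called, against 26.2% of all genes, so the members as a set did not stand apart by count. Their median difference was 0.12 (log2), beside 0.06 for all genes.

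Every one of these differences rests on the single AdGFP array, which is assumed to vary like the miR-7 arrays. None of the 15 calls passed once any miR-7 array was left out, which leaves 1 residual degree of freedom: limma called 0 members, and the lowest adjusted p of a member was 0.065 without replicate 1 of AdmiR7a, 0.0784 without its replicate 2 and 0.0666 without AdmiR7b. With no filter on low values, where 5.18% of all genes were called, 6 of the 15 passed (Rab17, Rab32, Rab40b, Rab5if, Rab11fip4 and Rab11fip5). The direction of all 15 was the same in each of these fits. The labels do not say whether the AdmiR7a arrays came from separate cultures, so the p-values may measure technical spread alone. Beta-cell markers moved between the same arrays: 1 of 6 was higher with miR-7, with a median difference of -0.87, while the log2 of their sum was 17.1 on AdGFP and 17.0 to 17.1 on the miR-7 arrays. Their part in the Rab differences was not tested.

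**Figure D1:**
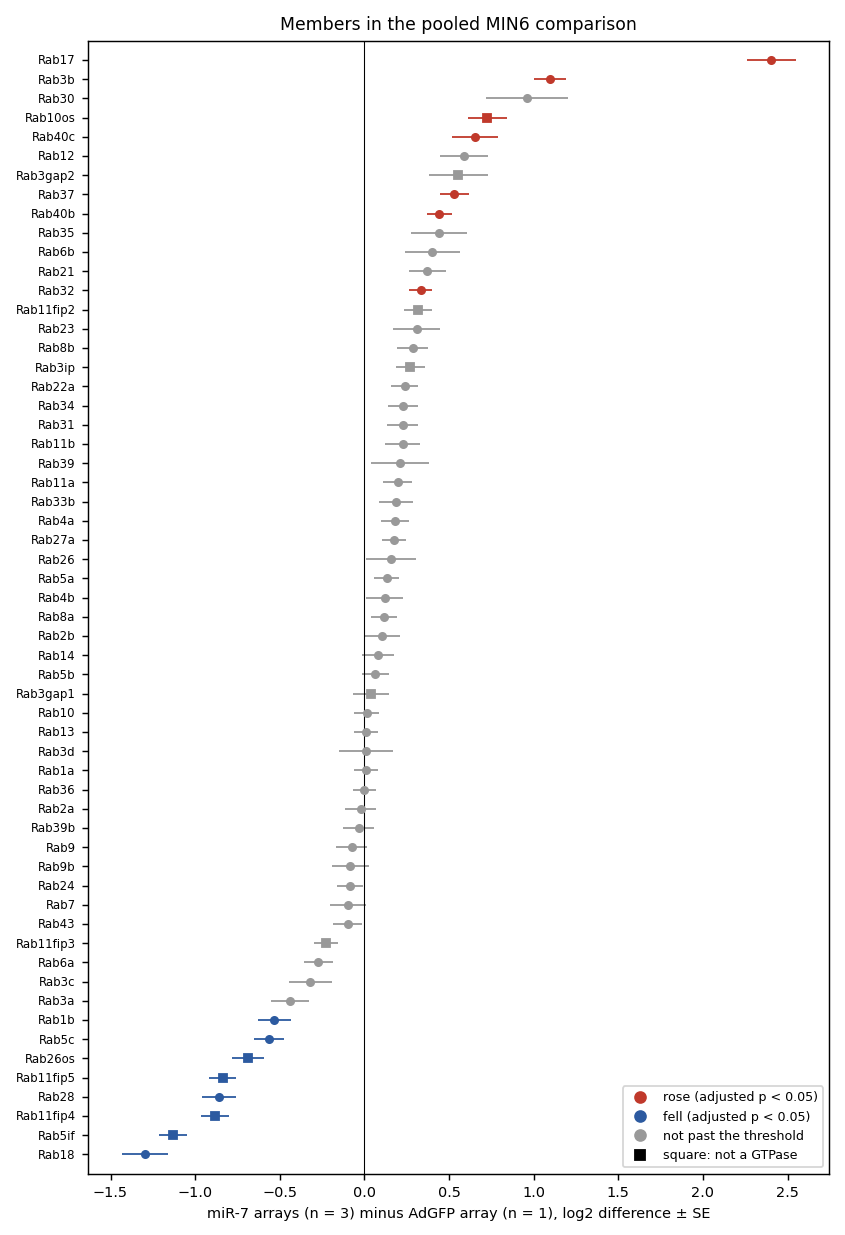
Log2 difference (x axis) of the 58 tested members, the mean of 3 miR-7 arrays minus 1 AdGFP array, with its SE from limma; squares are members that are not GTPases, red rose and blue fell at an adjusted p under 0.05. Rab17 at 2.40 lies apart from all others, 42 of 58 members lie within 0.5 of 0, and Rab18 at -1.30 is lowest.

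Among the Rabs of the early and recycling endosome, 1 of 12 tested rose and 1 fell, beside 14.0% and 12.1% of all genes. Rab17, an epithelial Rab of recycling endosomes and apical transport, read 6.68 with AdGFP, 9.20 and 8.91 with AdmiR7a and 9.14 with AdmiR7b. The miR-7 arrays lay within 0.3 of each other and far above AdGFP, and Rab17 rose by 2.40 ± 0.14 (SE; adjusted p = 0.0108). A further Rab17 probe set gave the same direction, with 4.10 on AdGFP and 6.13, 5.92 and 6.44 on the miR-7 arrays.

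Rab5c, an early endosome Rab, was lower on every miR-7 array, with 9.87 on AdGFP against 9.37, 9.30 and 9.25. It fell by 0.56 ± 0.09 (adjusted p = 0.0235), while its paralogs Rab5a (0.13, adjusted p = 0.258) and Rab5b (0.07, adjusted p = 0.58) did not pass. The other 8 tested genes of this group, Rab4a, Rab4b, Rab11a, Rab11b, Rab14, Rab21, Rab22a and Rab31, differed by 0.08 to 0.37 without passing. By their further probe sets with a mean of at least 4, the differences ran from -0.32 (Rab11b) to 0.28 (Rab22a).

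Of 7 tested secretory Rabs 2 rose and 0 fell, beside 14.0% and 12.1% of all genes. An unadjusted p under 0.05 was held by 3 of them and by 43.2% of all genes. Rab3b, a Rab3 isoform of regulated exocytosis, read 5.36 with AdGFP, 6.37 and 6.48 with AdmiR7a and 6.52 with AdmiR7b, and rose by 1.10 ± 0.09 (adjusted p = 0.0126). Rab37, found on secretory granules, read 9.16 with AdGFP and 9.62, 9.73 and 9.73 on the miR-7 arrays, and rose by 0.53 ± 0.09 (adjusted p = 0.0257). For both genes all miR-7 values lay above the AdGFP value. A further Rab37 probe set differed by 0.90 in the same direction.

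Rab3a, the main Rab3 of synaptic vesicles and insulin granules, read 10.89 with AdGFP and 10.45, 10.55 and 10.33 on the miR-7 arrays. Its difference of -0.44 ± 0.11 did not pass (adjusted p = 0.0587), though all miR-7 arrays were below AdGFP. Its probe set is of Affymetrix's x type, which can cross-hybridise. A further probe set of Rab3a gave -0.28.

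Rab27a, which docks insulin granules through granuphilin, was at 11.06 with AdGFP and 11.21, 11.24 and 11.26 on the miR-7 arrays (0.17 ± 0.07, adjusted p = 0.151). Rab3d stood at 0.01 (adjusted p = 0.971), but its other probe sets with a mean of at least 4 were lower on every miR-7 array, with differences of -0.35 and -0.41. Rab3c stood at -0.32 (adjusted p = 0.139) and Rab26 at 0.16 (adjusted p = 0.473), and Rab27b was not tested, with values from 2.998 to 3.46 in MIN6. Of the 4 Rab3 genes, Rab3b thus passed the test and the others did not.

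Among 14 tested Rabs of the endoplasmic reticulum and Golgi, 0 rose and 2 fell, beside 14.0% and 12.1% of all genes. An unadjusted p under 0.05 was held by 4 (43.2% of all genes). Rab18, which acts at the endoplasmic reticulum and on lipid droplets, read 10.83 with AdGFP, 9.69 and 9.41 with AdmiR7a and 9.48 with AdmiR7b. It fell by 1.30 ± 0.14 (adjusted p = 0.0147), and a further probe set gave -1.31. Rab1b, which serves transport from the endoplasmic reticulum to the Golgi, read 8.06 with AdGFP and 7.62, 7.49 and 7.47 on the miR-7 arrays and fell by 0.53 ± 0.10 (adjusted p = 0.0317). Its paralog Rab1a read 14.13 to 14.19 by its main probe set (0.01 ± 0.07, adjusted p = 0.937). A further Rab1a probe set was lower on every miR-7 array, with 12.15 on AdGFP and 11.91, 11.99 and 11.74, a difference of -0.27.

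Rab30, a Golgi Rab, had the third largest positive difference of the members, with 5.98 on AdGFP and 6.63, 7.03 and 7.18 on the miR-7 arrays. Its spread was wide, and 0.96 ± 0.24 did not pass (adjusted p = 0.0566), with 0.36 by a further probe set. Rab2a (-0.02 ± 0.09, adjusted p = 0.871) and Rab6a (-0.27 ± 0.09, adjusted p = 0.0875) did not pass either. The further Rab6a probe sets gave -0.32 and -0.28, and those of Rab2a with a mean of at least 4 ran from -0.23 to 0.66.

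Of the 6 Rabs that serve transport from the Golgi to the plasma membrane, limma called 0 (26.2% of all genes). An unadjusted p below 0.05 was held by 2 (43.2% of all genes). Rab12 was nearest to the threshold with 0.59 ± 0.14 (adjusted p = 0.0527) but -0.39 by its other probe set, and Rab10, which stood between 12.11 and 12.15 on all 4 arrays, was at 0.01 ± 0.07 (adjusted p = 0.914). Of the 5 tested Rabs of late endosomes, lysosomes and autophagy, Rab32, a Rab of lysosome-related organelles, read 4.98 with AdGFP and 5.31 on each miR-7 array. It rose by 0.33 ± 0.07 (adjusted p = 0.0394), with almost no spread between the miR-7 arrays. That call was lost when the arrays were centred (adjusted p = 0.0518), quantile-normalized (0.161) or fitted with an intensity trend (0.068). Rab7, the late endosome Rab, stood at -0.10 (adjusted p = 0.524), and at 0.22 by its other probe set.

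Of the 4 tested Rabs of the cilium and of other roles, 2 rose and 1 fell, beside 14.0% and 12.1% of all genes. Rab28, linked to cilia and photoreceptors, read 11.62 with AdGFP and 10.82, 10.80 and 10.66 on the miR-7 arrays. It fell by 0.86 ± 0.10 (adjusted p = 0.0164), and its further probe set by -0.74. Rab40c and Rab40b, whose SOCS box recruits ubiquitin ligase subunits, rose by 0.65 ± 0.13 (adjusted p = 0.0389) and 0.44 ± 0.07 (adjusted p = 0.0261). Both read higher on all miR-7 arrays, Rab40c with 8.81 against 9.31, 9.49 and 9.59 and Rab40b with 7.08 against 7.55, 7.49 and 7.52. When all probe sets of a gene were averaged, Rab40c (adjusted p = 0.0647) and Rab40b (0.0542) did not pass.

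Of the 10 tested members that are not GTPases, 1 rose and 4 fell, beside 14.0% and 12.1% of all genes. Rab5if, a small membrane protein first found as a Rab5 interactor, read 12.00 with AdGFP and 10.92, 10.81 and 10.85 on the miR-7 arrays, and fell by 1.13 ± 0.08 (adjusted p = 0.0119). The Rab11 effector genes Rab11fip4 (7.82 against 6.997, 6.89 and 6.92) and Rab11fip5 (7.60 against 6.81, 6.77 and 6.71) fell by 0.89 ± 0.08 and 0.84 ± 0.08 (adjusted p = 0.0133 and 0.0134). With averaged probe sets neither passed (adjusted p = 0.0606 and 0.0928), and a further Rab11fip4 probe set differed by 0.10 in the opposite direction. The opposite-strand transcripts went apart: Rab10os rose by 0.73 ± 0.12 (adjusted p = 0.0248), while Rab26os fell by 0.69 ± 0.10 (adjusted p = 0.0206).

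**Figure D2:**
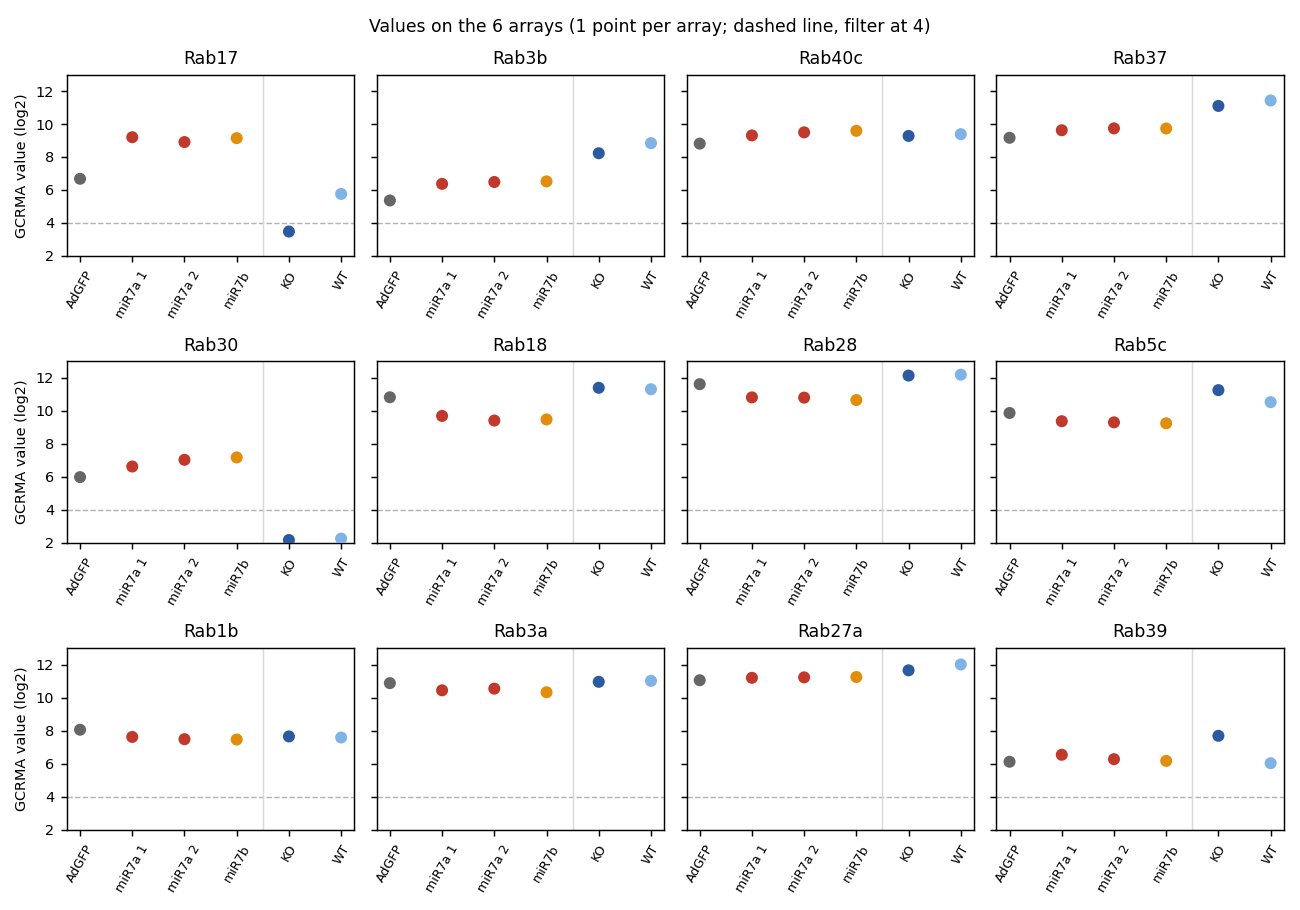
GCRMA values (log2, y axis) of 12 members on the 6 arrays, 1 point per array, with the filter of 4 as a dashed line. Rab17 is high on the 3 miR-7 arrays and lowest in KO islets, Rab18, Rab28, Rab5c and Rab1b are lower on the miR-7 arrays than with AdGFP, and Rab39 is highest in KO.

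The vectors were also set against AdGFP one at a time. For AdmiR7a, limma called 0 of 58 members (0.0% of all genes called). The lowest adjusted p was 0.0666, and 21 members and 3809 of 10367 genes had an unadjusted p below 0.05. That count depends on the setting, for the members as for all genes. After the arrays were centred 12 members passed (21.7% of all genes), and 11 with a filter at 6 (18.9%). With AdmiR7b, 8 members were at least 0.58 (log2) higher and 8 lower than AdGFP on 1 array each, 27.6% of 58 beside 23.4% of all genes. With the spread taken from AdmiR7a, limma called 0 of them (lowest adjusted p 0.0686). Rab17 stood at 2.37 with AdmiR7a and 2.46 with AdmiR7b, Rab3b at 1.06 and 1.16, Rab18 at -1.27 and -1.35 and Rab28 at -0.81 and -0.96. These pairs share the AdGFP array.

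The direct test of AdmiR7b minus AdmiR7a called 0 of 58 members (0.0% of all genes), with 0 members and 597 genes at an unadjusted p under 0.05. Member differences ran from -0.24 for Rab39 to 0.35 for Rab30, around a median of 0.00. With 1 residual degree of freedom, this does not show that the vectors act alike.

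Deleting miR-7a2 in beta cells asks what happens to these genes in islets when the microRNA is removed. Each genotype was measured on 1 array, so this comparison has no replicate and no test. Of 59 members, 3 were at least 0.58 (log2) higher in KO (4.54% of all genes) and 4 lower (4.56%), in all 11.9% beside 9.1% of all genes. At a size of at least 1, 1 was higher (1.61% of all genes) and 1 lower (1.23%), 2 of 59 members in all beside 2.84%. The median difference was -0.03, beside -0.02 for all genes. In islets, as in any bulk tissue, fewer cells of a type and less RNA per cell cannot be told apart.

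The largest differences were Rab17, lower in KO, and Rab39, higher in KO. Rab17 read 3.48 in KO and 5.76 in WT (KO minus WT -2.28), so the KO value lay below the filter of 4 and the size is limited by the background. Its further probe set read 4.10 in both KO and WT, the same value as on AdGFP, and gave no difference. Rab39, counted above with the Rabs of the endoplasmic reticulum and Golgi and also known from endosomes and autophagy, read 7.69 in KO and 6.03 in WT (1.66). It has a single probe set on the array.

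The early endosome genes Rab5c (11.26 in KO, 10.53 in WT) and Rab5b (5.10 and 4.39) were 0.73 and 0.71 higher in KO. The Rab5b values lay near the filter of 4, and a further Rab5b probe set read 2.98 in both KO and WT. Rab3ip, an exchange factor of Rab8 (9.45 in KO, 10.18 in WT), Rab35, counted with the Golgi to plasma membrane Rabs and also known from recycling (7.51 and 8.17), and Rab3b (8.23 and 8.84) gave KO minus WT differences of -0.73, -0.66 and -0.61. A further Rab3ip probe set differed by 0.28 in the opposite direction. Among the other tested secretory Rabs, Rab27a (-0.35), Rab37 (-0.33) and Rab3d (-0.24) were lower in KO, Rab3c was higher (0.51) and Rab3a was at -0.06. Further probe sets with an islet mean of at least 4 gave -0.01 for Rab3c, -0.03 for Rab37 and 0.08 for Rab3a. They gave -0.09 and -0.27 for Rab27a and -0.11 and -0.57 for Rab3d.

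Some other values moved between these arrays. The log2 of the summed immune markers was 10.7 in KO and 10.6 in WT (5 of 8 higher in KO), that of the endothelial markers 11.0 and 11.2 (2 of 6 higher) and that of the stellate markers 9.49 and 9.82 (1 of 6 higher). The ductal gene Krt19 was 4.45 in KO and 2.68 in WT, and Cftr was at the lowest value in both. The 15 poly-A spike control probe sets were on average 1.03 lower in KO (KO minus WT -1.03). Their part in the Rab differences was not tested.

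Rab3b and Rab5c passed the pooled test in MIN6 (adjusted p under 0.05). Both also reached the untested log2 size of 0.58 in islets, in opposite directions. Rab3b rose with miR-7 and was lower in KO, and Rab5c fell and was higher in KO. These marks are unlike, and the pooled difference of Rab5c (-0.564) is short of the islet mark. Of all genes, 26.2% passed the MIN6 mark and 9.1% the islet mark. The share past both marks was not counted, so these genes are given as values only. Rab17 was past both marks too, but it entered the islet comparison only through its WT value. Its other probe set gave no islet difference, so the islet value of Rab17 supports no direction. Over the 56 members measured in both, which share no array between the comparisons, 39 had opposite signs, 69.6% beside 59.0% of 9765 genes. Pearson's r across members was -0.56 and Spearman's rho -0.48, and without Rab17 r was -0.31 and rho -0.45, beside -0.26 and -0.25 for all genes. Genes are not independent replicates, each axis rests on a single control array, and these values are a description. Rab18, the lowest member in MIN6, was at 0.09 in KO minus WT, and Rab28 was at -0.05. Their further probe sets gave -0.26 for Rab18 and -0.32 for Rab28.

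**Figure D3:**
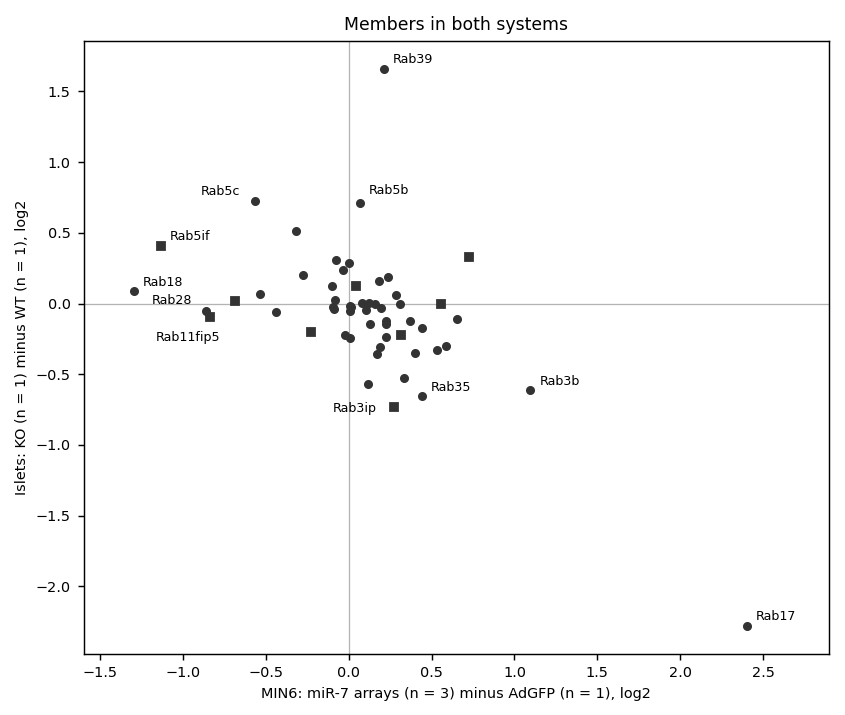
Log2 difference of 56 members in MIN6 (x axis, 3 miR-7 arrays minus 1 AdGFP array) against that in islets (y axis, 1 KO array minus 1 WT array), with squares for members that are not GTPases. Rab17 lies far from the rest at 2.40 and -2.28, and Rab39 is high in KO with 0.21 in MIN6.

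The family also differed between the cell line and the tissue. In the fit of 4 MIN6 against 2 islet arrays (adjusted p under 0.05 and a log2 size of at least 1), 10 of 60 members were higher in MIN6 (20.0% of all genes) and 13 lower (18.7%). That is 38.3% of the members beside 38.7% of all genes. The cell line, the virus, the medium and the RNA preparation differ together here and cannot be told apart. Rab25, Rab19, Rab30 and Rab11fip4, at the extremes, had a mean under 4 in 1 of the systems and entered the test only through the other. The counts above include them, but their calls carry no support, and their differences are given below as values with no test. With a mean of at least 4 required in both systems, an alternative chosen after seeing the data, 19 of 56 members were called beside 33.9% of all genes.

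Rab25, an epithelial Rab of the Rab11 subfamily, read 2.28 to 2.30 on the 4 MIN6 arrays and 8.85 and 8.90 in islets. Rab19 read 2.17 to 2.29 in MIN6 and 7.71 and 7.49 in islets. Rab20, under the mean of 4 over all arrays and so not tested, read 2.26 to 2.51 in MIN6 and 6.06 and 6.04 in islets. A gap between all MIN6 and all islet values was not particular to these genes and was also seen for Rab13 and Rab9b. The share of all genes with such a gap was not counted. The fit itself called 38.7% of all genes. Lower in MIN6 too were Rab3b (-2.35 ± 0.38, adjusted p = 0.00183), Rab6b, a neuronal Golgi Rab (-2.155 ± 0.19, adjusted p = 0.000137), and the Golgi Rab gene Rab43 (-1.95 ± 0.09, adjusted p = 9.37e-06). The other Rab6b probe sets with a mean of at least 4 gave 0.29 and -0.47. Rab37, at -1.70 by its main probe set, was at 0.25 by the other. With the probe sets of each gene averaged, 15 members were called in place of 23, and Rab12 turned from 1.08 ± 0.22 (adjusted p = 0.00549) to -0.92.

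Rab30 stood at 5.98 to 7.18 in MIN6 and at 2.17 and 2.26 in islets, and Rab11fip4 at 6.89 to 7.82 and at 2.77 on both islet arrays. Rab13, which carries tight junction proteins, was 1.98 ± 0.08 higher in MIN6 (adjusted p = 3.63e-06) and the late endosome Rab gene Rab9b 1.90 ± 0.10 (adjusted p = 1.17e-05). Rab17 was 3.86 ± 0.93 higher (adjusted p = 0.0105), but its arrays spread widely within both systems, the difference did not pass without the KO array (2.72, adjusted p = 0.101) or with no filter on low values (adjusted p = 0.0517), and AdGFP minus WT alone was 0.92. Among the members with the highest probe set values, Rab1a (0.00), Rab10 (0.00), Rab5a (-0.02), Rab11a (-0.04), Rab6a (-0.08), Rab2a (-0.11) and Rab14 (-0.22) did not pass, and Rab7 (-0.68, adjusted p = 0.00107) passed the p but not the size. Their further probe sets with a mean of at least 4 often differed from these values, with -0.58 for Rab1a, -0.57 for Rab11a, 0.16 and 0.71 for Rab10, 0.38 for Rab7, -0.52 to 0.63 for Rab14 and -0.20 to 1.58 for Rab2a.

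**Figure D4:**
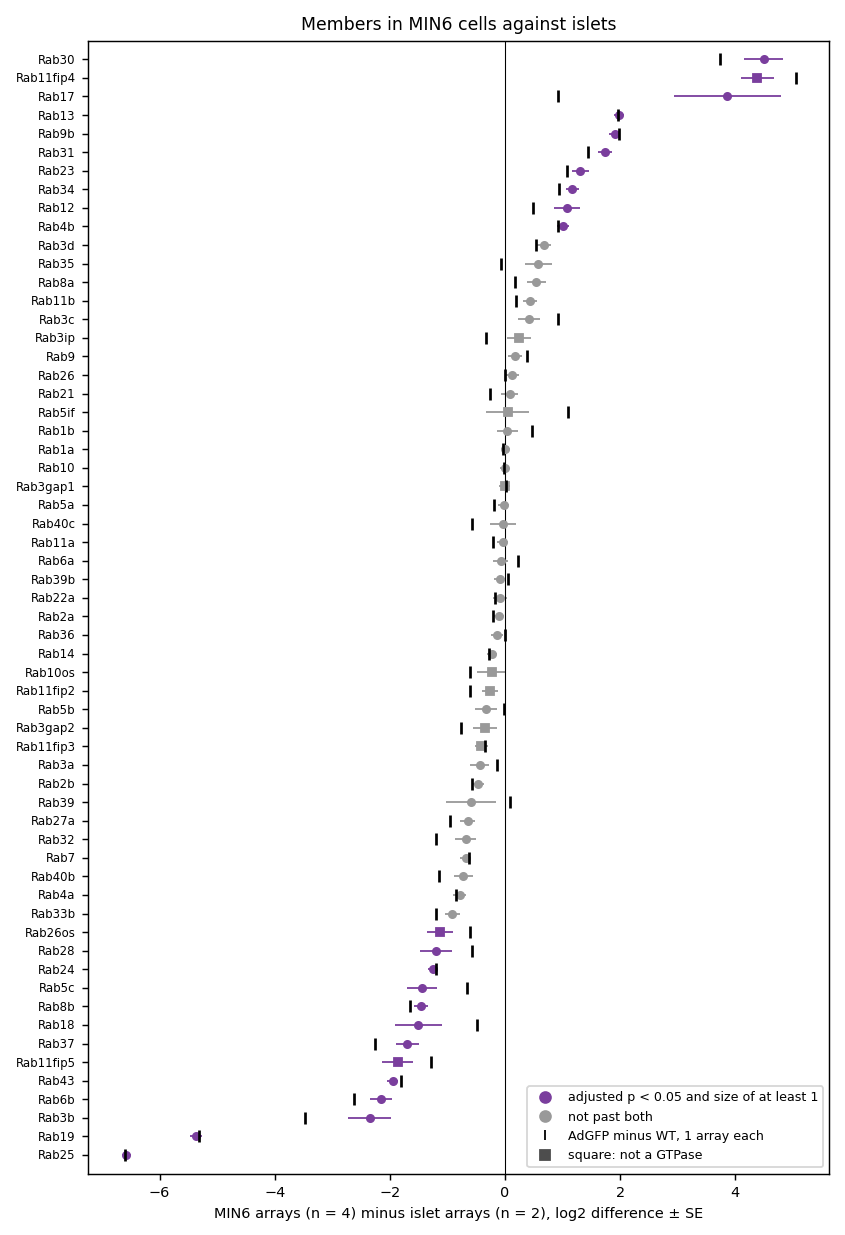
Log2 difference (x axis) of 60 members, the mean of 4 MIN6 arrays minus that of 2 islet arrays with its SE from limma; purple marks those past both thresholds, squares are not GTPases and black ticks give AdGFP minus WT on 1 array each. Rab25 and Rab19 lie below -5 and Rab30 and Rab11fip4 above 4, all near the background in the lower system. These are purple too, though they entered the test only through the system where they are high. For Rab17 the tick at 0.92 lies far from the point at 3.86.

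The genes that act on Rabs were counted in the pooled MIN6 fit beside the 26.2% of all genes called. As for the members, limma called 0 of all genes, these included, once any miR-7 array was left out. Of 31 tested GTPase-activating protein genes 5 rose and 5 fell (median 0.07). Usp6nl, which acts on Rab5, fell by 1.24 ± 0.18 (adjusted p = 0.0227) and Tbc1d5, which acts on Rab7 with retromer, fell by 1.19 ± 0.17 (adjusted p = 0.0206), while Sgsm2 and Sgsm1 rose by 0.81 and 0.75 (adjusted p = 0.0361 and 0.0159). Of 28 exchange factor genes 1 rose and 2 fell (median -0.01). Dennd5b rose by 0.43, the Rab7 activator gene Mon1b fell by 0.42 and Madd, the exchange factor of Rab3 and Rab27, fell by 0.38 ± 0.07 (adjusted p = 0.0327).

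Of 10 tested secretory effector genes 1 rose and 1 fell (median -0.19). Rph3al, which encodes the Rab3 and Rab27 effector Noc2, rose by 0.41 ± 0.09 (adjusted p = 0.0437), and Exph5, a Rab27 effector gene, fell by 0.43 ± 0.08 (adjusted p = 0.0286). Of 24 effector genes of endosomes and Golgi 5 rose and 4 fell (median 0.05). Besides Rab11fip4 and Rab11fip5, the phosphatase gene Inpp5b and the tethering subunit gene Vps39 fell by 0.61 and 0.60. The 5 that rose were Appl1 (0.56), Rabep1 (0.54), Rilpl1 (0.49), Rilpl2 (0.47) and Eea1 (0.37). Of 8 genes of Rab prenylation and GDP dissociation inhibition, limma called 0. Their lowest adjusted p was 0.139, and 0 had an unadjusted p below 0.05, beside 43.2% of all genes.

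The stretch upstream of the start was compared for members that moved in opposite directions. RefSeq's promoter table (GRCm38.p6) held 58 of the 72 members, among them 6 that rose and 6 that fell. In the 250 bases before the start, on both strands, the GC box GGGCGG was found in 41 of 58 members (70.7%), beside 42.7% of 17491 protein-coding genes and 33.0% of all 27025 genes, in 4 of the 6 that rose and 5 of the 6 that fell. CACGTG (the E-box) was in 10.3% of members and 6.04% of all genes, TATAAA in 6 of 58 members and 3507 of 27025 genes, and TGACGTCA (the cAMP response element) in 5.17% and 1.6%. None of these motifs contains another. The windows of Rab17, the member that rose most, and Rab28, which fell, are shown with matches in capitals, at chr1:90967668-90967917 and chr5:41708180-41708429 (both - strand, written 5′ to 3′ towards the gene). Rab17 has no match to any of the 4 motifs and Rab28 has 1 GC box. A match describes the letters only.
Rab17: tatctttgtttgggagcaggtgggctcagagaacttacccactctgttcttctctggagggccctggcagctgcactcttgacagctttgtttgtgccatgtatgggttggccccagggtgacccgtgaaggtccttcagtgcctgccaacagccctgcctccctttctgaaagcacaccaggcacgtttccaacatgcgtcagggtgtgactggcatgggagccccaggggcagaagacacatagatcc
Rab28: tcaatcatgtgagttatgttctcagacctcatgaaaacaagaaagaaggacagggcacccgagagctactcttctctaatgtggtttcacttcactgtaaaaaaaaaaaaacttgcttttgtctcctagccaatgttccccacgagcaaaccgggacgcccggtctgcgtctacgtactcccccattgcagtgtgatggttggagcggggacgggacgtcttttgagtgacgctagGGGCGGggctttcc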

How the data were processed

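Per the labels, 6 Affymetrix arrays were grouped by sample title alone. The authors deposited log2 values, for which the submitters' processing notes name GCRMA and affy, with no versions. As generally used, GCRMA corrects background from probe sequence and compresses weak signals towards a common floor. It is not given in the sources used here if further arrays entered the same normalization. Of 45101 probe sets, 34958 carried 1 symbol in GEO's platform annotation, 932 several and 9211 none. All 72 members were found in the RefSeq table by Entrez identifier. The members had 161 probe sets, and 48 members had more than 1. The number of arrays limits the precision.

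Genes with a mean of at least 4 over the arrays compared were fitted with limma 3.58.1 (R 4.3.3, lmFit and eBayes), two-sided, with Benjamini-Hochberg adjustment over all genes tested. Residual degrees of freedom were 2 for the pooled fit, 1 with a mean per vector and 4 for MIN6 against islets. Comparisons of 1 array per group were counted by a log2 size of 0.58, untested. The fits were tested on simulated data. Alternatives were other filters, probe set rules, normalizations, a trend and each array left out.

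Named were all members past the pooled test, the 8 with the highest values in each system, those past the size in KO, all secretory Rabs, the 5 highest and lowest in MIN6 minus islets, and up to 4 called genes of each regulator list. Further members and effector genes were named after their values were seen. The members and lists were chosen with earlier results of these data known.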

Additional observations from a re-analysis of the deposited data

How the results depend on the processing

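The 15 called members of the pooled fit became 6 with no filter on low values (where 5.18% of all genes were called) and 0 with AdmiR7a alone. Leaving out each miR-7 array gave 0 to 0 members. With the other alternatives there were 13 to 17. AdmiR7a against AdGFP, with 0 members, gave 2 with no filter (1.78% of all genes), 11 with a filter at 6 (18.9%) and 6 with averaged probe sets (9.89%). It gave 12 after centring (21.7%) and 12 after quantile normalization (19.2%), so this count depends on the setting. Its fit leaves no residual degree of freedom without either AdmiR7a array, nor does AdmiR7b minus AdmiR7a, and neither was run there. AdmiR7b minus AdmiR7a gave 0 members under each alternative run. The 16 members by size with AdmiR7b became 5 at a size of 1 and 0 with the borrowed limma contrast, and the 7 in KO minus WT became 2 at a size of 1. MIN6 against islets went from 23 to 15 members with averaged probe sets, ran from 20 to 23 when each array was left out, and gave 19 for AdGFP against WT by size and 19 with a mean of at least 4 in both systems, alternatives chosen after seeing the data. The cause of these shifts was not tested. Of the members called in the pooled fit, KO minus WT or MIN6 against islets, Rab12 alone changed direction, in MIN6 minus islets with averaged probe sets (-0.917, adjusted p = 0.000953). No paired analysis was possible because the AdmiR7a arrays alone carry replicate numbers.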
